A study of Mus musculus with 9 samples.

Results

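The interleukin-1 (IL-1) system and the inflammasome were followed in cells sorted as mouse microglia through 9 genes of a 757-gene neuroinflammation panel: the ligands Il1a and Il1b, the antagonist Il1rn, the receptor genes Il1r1, Il1r2 and Il1rap, and the inflammasome genes Nlrp3, Casp1 and P2rx7. The genes were chosen by name, with earlier results of these data known, and all 9 were present in the deposited table. The question was how transcripts of this cytokine system stood in these sorted cells at early and later times after a transient ischemic attack (TIA), and whether both ligands moved alike.

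The 9 samples were sorted cells, which the methods call microglia-like, of 3 Sham animals and of animals examined 24 h (TIA 24h) or 3 d (TIA 3d) after the attack, 3 of each. Per the figure legend the animals were male, and per the methods the mice of the study were 10 to 12 weeks old. The methods list wild-type C57BL6/J mice but do not name the strain of these animals. TIA was a 5 min occlusion of the middle cerebral artery by a filament under isoflurane, and Sham animals went through that surgery with no filament inserted, so all groups share the anaesthesia and the ligated neck arteries. How long after surgery the Sham brains were taken is not given in the sources used here, and a later time point of the study is not analysed here. All brains were placed in a salt solution holding the transcription inhibitor actinomycin D and dissociated with papain. Live cells (7-AAD-negative) that carried both CD45 and CD11b were sorted, a gate that microglia share with other myeloid cells such as monocytes and neutrophils. RNA was hybridised to barcoded probes and counted one by one on an nCounter instrument, without amplification. The labels give no batch.

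The table holds log2 values of counts normalized within each lane, from which the whole counts could be recovered. Lane totals ran from 6560 to 25582 counts in Sham, from 7248 to 10929 in TIA 24h animals and from 29200 to 62883 in TIA 3d animals, so every TIA 3d lane had more counts than any other lane, and depth and TIA 3d cannot be told apart. The 9 measured microglial markers (such as Tmem119, Cx3cr1 and P2ry12) took 2.10% to 16.8% of the lane in Sham, 1.26% to 3.36% in TIA 24h animals and 6.85% to 13.4% in TIA 3d animals. They had 2 counts or more in every lane, which alone does not set them above other genes. In TIA 24h replicate 3 they had 2 to 20 counts, where the median gene had 8. The largest count of any gene was 32 in Sham replicate 3 (median 8) and 60 in TIA 24h replicate 2 (median 9). The label was not equally borne out in all lanes: 9 oligodendrocyte markers took more counts than the microglial ones in TIA 24h replicate 1 (5.62% against 3.36%) and replicate 3 (5.49% against 1.26%), and nearly as many in Sham replicate 2 (6.12% against 7.96%) and TIA 24h replicate 2 (2.15% against 2.69%), while at TIA 3d they took at most 0.603%. In such bulk samples fewer microglia and less RNA per microglial cell cannot be told apart.

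IL-1 alpha and IL-1 beta are sister cytokines that bind the same receptor. IL-1 alpha is active in its precursor form and acts as an alarm signal when cells are damaged, whereas IL-1 beta is made as an inactive precursor and is cut to its active form by caspase-1. Caspase-1 (Casp1) is itself activated in the inflammasome, a complex built by the sensor NLRP3, for which ATP acting on the channel P2X7 (P2rx7) is a classical trigger. The signalling receptor consists of IL-1R1 (Il1r1) and its accessory protein (Il1rap), while the receptor antagonist (Il1rn) and the decoy receptor IL-1R2 (Il1r2) hold the signal back. In the brain, microglia are a main source of both ligands after ischemia. Il1a and Il1b are neighbouring protein-coding genes on mouse chromosome 2, as are Il1r1 and Il1r2 on chromosome 1 (RefSeq, GRCm38.p6).

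The 250 bases upstream of both neighbouring ligand genes are shown because their differences between TIA 24h and TIA 3d had opposite signs as deposited. These were 4.45 for Il1a and -1.77 for Il1b, and with no lane scaling Il1b stood at -0.31 with overlapping counts. The sequences are given 5′ to 3′ on the strand of the gene (RefSeq, GRCm38.p6, minus strand, ending at the base before the annotated start), with capitals for the motifs found. The window of Il1a lies at chr2:129309973-129310222 and that of Il1b at chr2:129371140-129371389.
Il1a: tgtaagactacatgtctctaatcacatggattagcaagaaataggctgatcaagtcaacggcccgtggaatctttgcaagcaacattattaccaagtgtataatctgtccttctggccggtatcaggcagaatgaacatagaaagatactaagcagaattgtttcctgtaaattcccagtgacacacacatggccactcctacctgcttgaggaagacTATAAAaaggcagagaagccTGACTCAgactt
Il1b: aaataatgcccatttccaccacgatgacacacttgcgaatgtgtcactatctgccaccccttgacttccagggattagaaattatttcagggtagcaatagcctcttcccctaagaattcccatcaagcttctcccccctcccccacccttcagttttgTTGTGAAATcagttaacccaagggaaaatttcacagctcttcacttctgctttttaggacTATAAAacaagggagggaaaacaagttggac

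Both windows held the TATA box letters TATAAA, at 32 to 27 bases before the start in Il1a and at 31 to 26 in Il1b. The AP-1 letters TGANTCA matched in Il1a, as TGACTCA at 12 to 6 bases before the start. The C/EBP letters TTNNGNAAT matched in Il1b, as TTGTGAAAT at 91 to 83 bases before the start. The consensus for NF-kB matched neither window. Both strands were searched and no matches overlapped. Of 32841 mouse promoter windows of that length, 12.4% held the TATA box letters, 6.75% the AP-1 letters, 10.2% the C/EBP letters and 7.25% the NF-kB consensus. These matches describe letters in the window and no binding was measured.

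Il1a had the widest range of the 9 genes. Its level in log2 normalized counts was 5.69, 4.38 and 2.56 in Sham replicates 1 to 3, 3.83, 0.89 and 0.92 in TIA 24h animals and 6.23, 6.09 and 6.66 in TIA 3d animals. All TIA 3d animals were above all others, while the Sham animals were spread widely and overlapped with TIA 24h. The recovered counts behind these levels were 54, 19 and 3 in Sham, 9, 1 and 1 in TIA 24h animals and 134, 80 and 184 in TIA 3d animals. At TIA 24h replicates 2 and 3 stood at 1 count, the lowest count in the table, and whether counts of 0 had been raised to 1 is not stated. In the order Sham, TIA 24h, TIA 3d, the group means were 4.21 ± 1.57, 1.88 ± 1.69 and 6.33 ± 0.29 (SD, n = 3 each).

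From TIA 24h to TIA 3d Il1a rose by 4.45 in log2 units (SE 0.82, adjusted p = 0.0229, limma). The pooled counts of 398 against 11 gave a ratio of normalized levels of 12.9, with a counting interval of 7.14 to 26.1. Intervals here are 95% intervals and cover counting error only. With a call taken as an adjusted p under 0.05, the call was lost without TIA 24h replicate 2 (adjusted p = 0.0617, limma) or 3 (0.0884) and without TIA 3d replicate 1 (0.0827) or 3 (0.0788), while the difference stayed between 3.95 and 5.42. It was also lost relative to the microglial markers, all 9 of which rose with a median of 2.96 (Il1a difference 1.56, adjusted p = 0.168, limma), and with the log2 lane total as a covariate (0.65, adjusted p = 0.987). Against Sham, Il1a differed by -2.33 at TIA 24h (SE 0.82, adjusted p = 0.647, limma) and by 2.12 at TIA 3d (SE 0.82, adjusted p = 0.181, limma), and neither was called. The microglial markers themselves differed from Sham by a median of -1.79 at TIA 24h and 1.17 at TIA 3d, and relative to them the Il1a differences were -0.63 and 0.93 (adjusted p = 0.567 and 0.605, limma). With the log2 lane total as a covariate they were -1.28 and -0.63 (adjusted p = 0.727 and 0.973, limma), so the sign at TIA 3d turned. Without Sham replicate 1 the difference at TIA 3d was 2.86 and called (adjusted p = 0.0379, limma), and without Sham replicate 3 it was 1.29 (adjusted p = 0.529). Across the 3 groups the moderated F test in limma gave Il1a an adjusted p of 0.0533, which was not called and is a tie of 44 genes.

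Il1b took another course. Its log2 level was 3.11, 3.13 and 3.56 in Sham, 4.90, 3.89 and 5.01 in TIA 24h animals and 3.75, 1.36 and 3.38 in TIA 3d animals. The TIA 24h animals were above all Sham and all TIA 3d animals, and TIA 3d replicate 2 was far below its group. The means were 3.26 ± 0.25, 4.60 ± 0.62 and 2.83 ± 1.29 (SD, n = 3 each). Il1b fell by 1.77 from TIA 24h to TIA 3d (SE 0.58, adjusted p = 0.0494, limma), just inside the threshold. When single samples were left out, it stayed inside only without Sham replicate 1 or 3 (adjusted p = 0.0378 and 0.0385, limma), and without TIA 3d replicate 2 the difference was -1.03 (adjusted p = 0.142). Over all 20 alternatives Il1b was called in 6. The call was also lost with median centring, quantile normalization, voom, array weights, the ordinary linear model, the lane total as a covariate and no lane scaling. Against Sham the difference was 1.33 at TIA 24h (SE 0.58, adjusted p = 0.647, limma) and -0.43 at TIA 3d (SE 0.58, adjusted p = 0.677, limma), and the latter turned to 0.30 without TIA 3d replicate 2 (adjusted p = 0.723).

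The recovered counts of Il1b were low in every group, in shallow and in deep lanes. They were 9, 8 and 6 in Sham, 19, 8 and 17 in TIA 24h animals and 24, 3 and 19 in TIA 3d animals, so that the TIA 24h and TIA 3d counts overlapped. With no scaling of the lanes the log2 difference between the time points was -0.31 for Il1b, and the remainder of its fall was the difference of the lane factors, which was -1.46 on the log2 scale for every gene. For Il1a the unscaled difference was 5.91, larger than the scaled one.

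**Figure D1:**
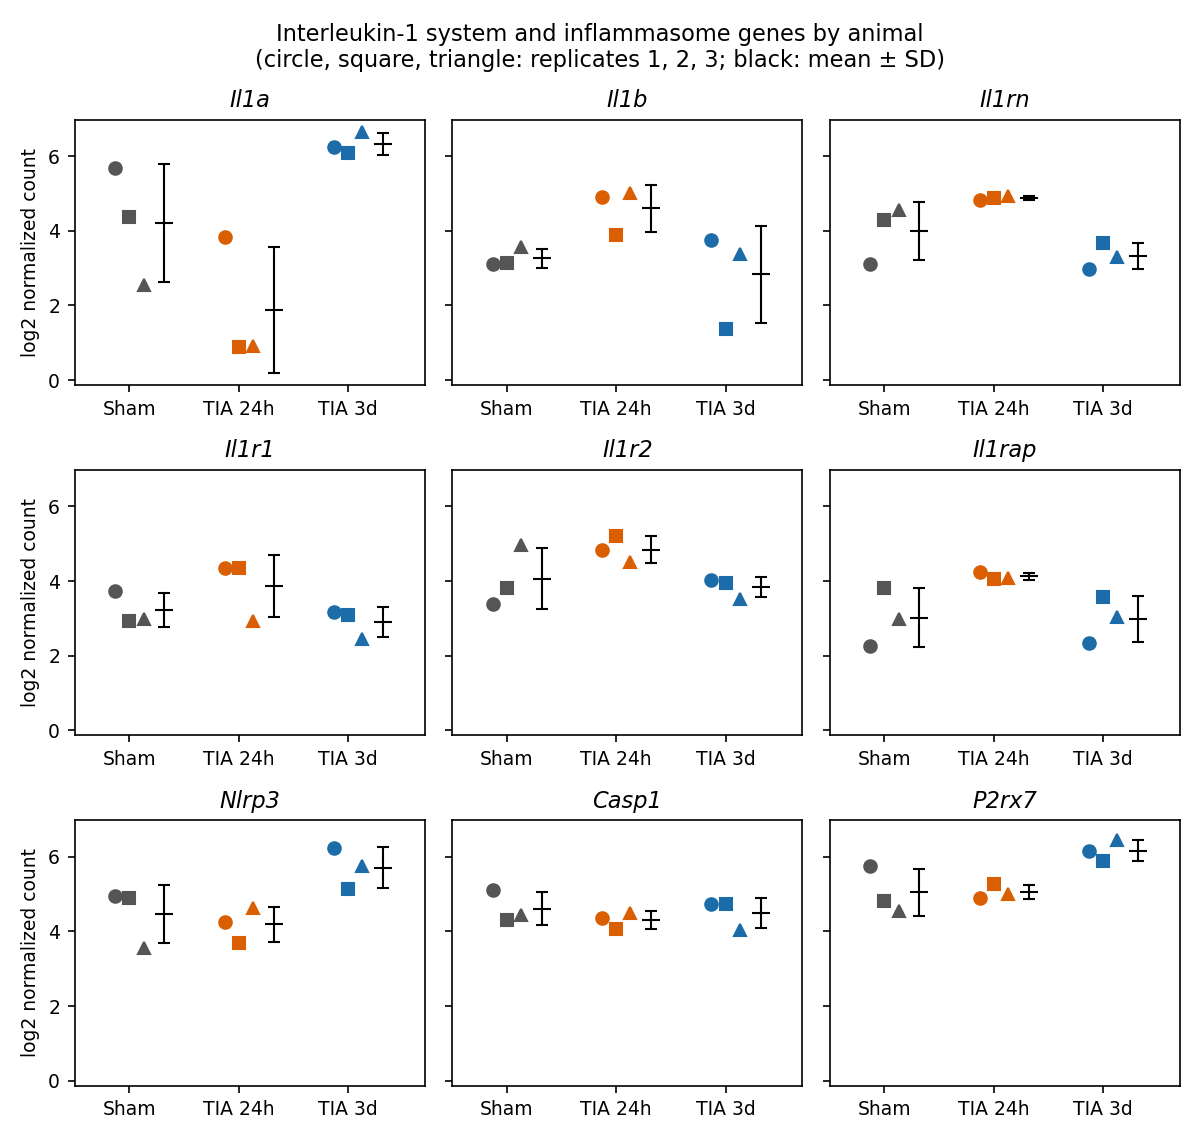
Log2 normalized counts (y axis) of the 9 genes in each animal, by group (x axis), with the replicate shown by the marker shape and the mean ± SD in black (n = 3 per group). The 3 TIA 3d animals lie above all others for Il1a, Nlrp3 and P2rx7, and the 3 TIA 24h animals lie above all others for Il1b, Il1rn and Il1rap.

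The ratio of both ligands within a lane does not depend on the lane's scaling, though it can still move with the mix of cells in the lane. A background added to the counts would not cancel in it, and the deposited values held no negative controls. Il1b had 3 to 24 counts and Il1a 1 to 184, where the lane medians were 8 to 22. The part of such a background in the ratio was not tested. Probes for different genes capture with different efficiency, and only the change of the ratio between groups was read. On the log2 scale Il1a minus Il1b was 2.58, 1.25 and -1 in Sham, -1.08, -3 and -4.09 in TIA 24h animals and 2.48, 4.74 and 3.28 in TIA 3d animals. All TIA 24h animals were below all Sham animals and all TIA 3d animals, while Sham and TIA 3d overlapped through Sham replicate 1. The means were 0.94 ± 1.81, -2.72 ± 1.52 and 3.50 ± 1.14 (SD, n = 3 each). The mean log2 level of the microglial markers had the same order as the ratio within Sham and within TIA 24h: it was 8.55, 6.94 and 4.82 in Sham, 5.85, 5.32 and 4.04 in TIA 24h animals and 7.90, 8.25 and 7.72 in TIA 3d animals, and its part in the ratio was not tested.

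Of the variance of this log2 ratio, 80.9% lay between the groups (one-sided exact permutation p = 0.00714 over 280 distinct splits, where 0.00357 is the smallest possible). The mean log2 ratio differed by 6.22 between TIA 3d and TIA 24h (two-sided exact permutation p = 0.1) and by -3.67 between TIA 24h and Sham (exact permutation p = 0.1), and 0.1 is the smallest p that 3 animals against 3 allow. Between TIA 3d and Sham it differed by 2.55 (exact permutation p = 0.2), and by 1.58 without Sham replicate 3 (exact permutation p = 0.3). With both counts raised to a floor of 3, which bears on the lanes with a single Il1a count, the share between groups was 79.5% (exact permutation p = 0.0107). The labels do not say that the replicate numbers mark a pairing, and the samples' deviations did not settle it. With the replicate number as a block, the share between groups was 88.8% with an exact permutation p of 0.0556. That is outside the threshold, where 0.0278 is the smallest possible.

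As a share of the summed counts of both ligands in a lane, Il1a made up 85.7%, 70.4% and 33.3% in Sham, 32.1%, 11.1% and 5.56% in TIA 24h animals and 84.8%, 96.4% and 90.6% in TIA 3d animals. The exact binomial intervals (Clopper-Pearson, 95%) were wide where counts were few: 7.49% to 70.1% in Sham replicate 3 and 0.281% to 48.2% in TIA 24h replicate 2. At TIA 3d the lowest bound of the 3 lanes was 78.2%, and at TIA 24h the highest bound was 52.4%. These intervals do not cover the spread between animals, for which the tests of the ratio stand.

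**Figure D2:**
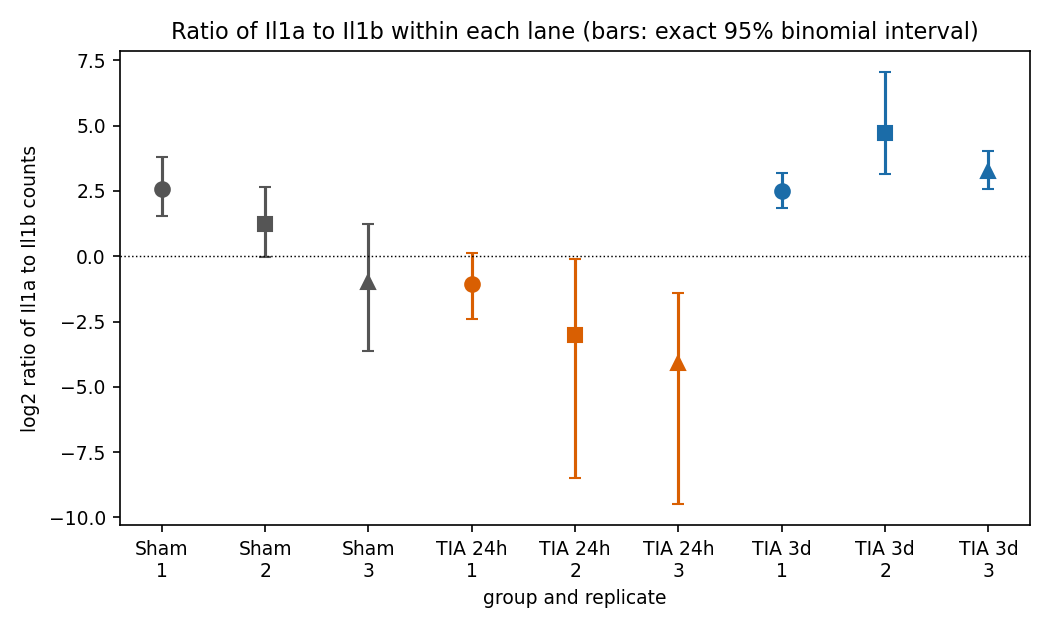
Log2 ratio of the recovered counts of Il1a to Il1b (y axis) in each lane, by group and replicate (x axis), with bars for the exact 95% binomial interval, which covers counting error only. The 3 TIA 24h lanes lie from -4.09 to -1.08 and the 3 TIA 3d lanes from 2.48 to 4.74, with Sham in between and overlapping TIA 3d.

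Il1rn, which encodes the secreted antagonist that occupies the receptor without signalling, had log2 levels of 3.11, 4.30 and 4.56 in Sham, 4.83, 4.89 and 4.92 in TIA 24h animals and 2.97, 3.68 and 3.30 in TIA 3d animals. The TIA 24h animals were nearly equal to each other and above all others. Il1rn fell by 1.56 from TIA 24h to TIA 3d (SE 0.45, adjusted p = 0.0379, limma). Its recovered counts were nearly flat over the lanes, with 9, 18 and 12 in Sham, 18, 16 and 16 in TIA 24h animals and 14, 15 and 18 in TIA 3d animals, and the unscaled log2 difference between the time points was -0.10. Single samples left out gave -1.74 to -1.39, and the call was lost without any 1 of the TIA 24h animals or TIA 3d replicate 1 or 3 (highest adjusted p = 0.128, limma). Against Sham the difference was 0.89 at TIA 24h (adjusted p = 0.715, limma) and -0.67 at TIA 3d (adjusted p = 0.382, limma).

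Set against its ligand within the lane, the log2 ratio of Il1b to Il1rn was 0.00, -1.17 and -1 in Sham, 0.08, -1 and 0.09 in TIA 24h animals and 0.78, -2.32 and 0.08 in TIA 3d animals. The groups overlapped throughout, and no test was run on this balance of an agonist and its antagonist.

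**Figure D3:**
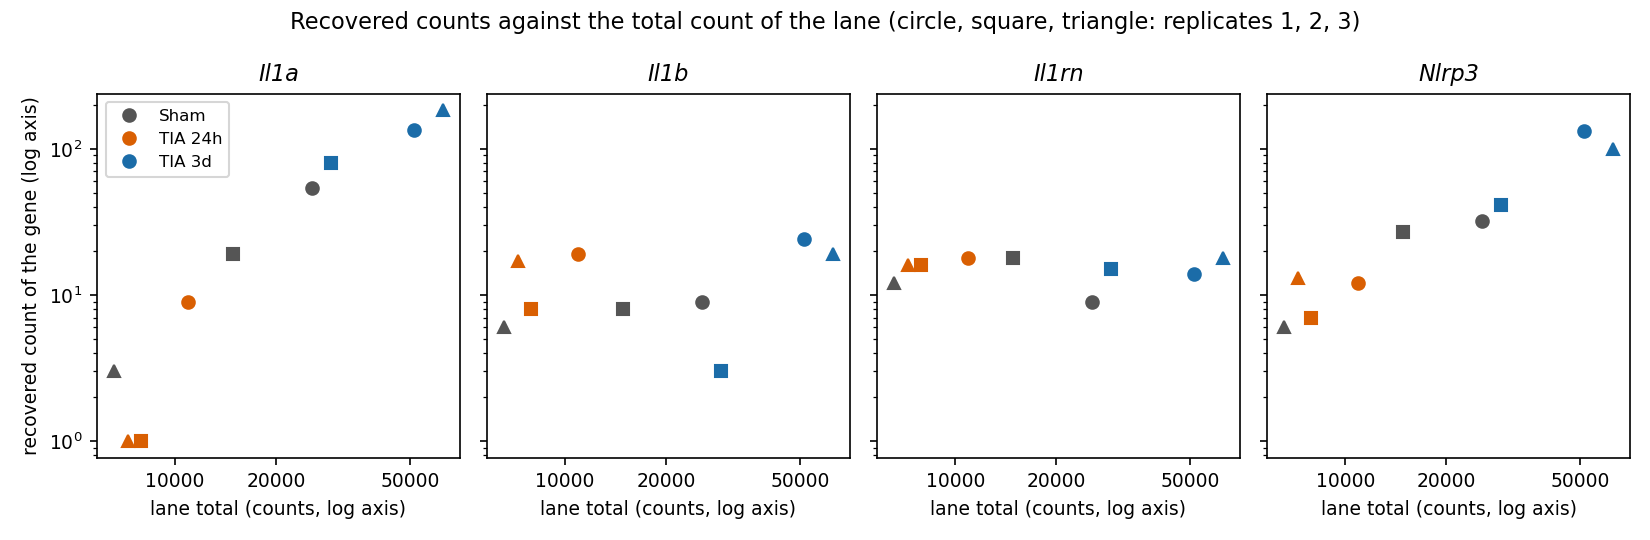
Recovered counts of Il1a, Il1b, Il1rn and Nlrp3 (y axis, log scale) against the total count of the lane (x axis, log scale), 1 point per animal with the colour for the group and the shape for the replicate. Il1a and Nlrp3 have their highest counts in the deepest lanes, with ranges of 1 to 184 and 6 to 133 counts, while Il1b stays between 3 and 24 and Il1rn between 9 and 18.

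Among the receptor genes, none was called in any comparison of 2 groups as deposited. Between TIA 3d and TIA 24h all 3 were called lower with counts scaled to the lane total (-1.95 for Il1r1, -1.98 for Il1r2 and -2.11 for Il1rap, with adjusted p = 0.00949, 0.0155 and 0.012, limma, where 50.1% of all genes were called) and relative to the microglial markers (-3.86, -3.90 and -4.03, where 72% were called). With array weights Il1r2 and Il1rap were also called lower, where 41.5% of all genes were called. With no lane scaling all 3 receptor genes turned to the other sign (0.49, 0.45 and 0.32) and were not called. Il1r1, the signalling receptor chain, had log2 levels of 3.75, 2.93 and 2.97 in Sham, 4.36, 4.35 and 2.92 in TIA 24h animals and 3.17, 3.09 and 2.45 in TIA 3d animals, and all groups overlapped. Il1rap, the accessory chain, stood at 2.26, 3.83 and 2.97 in Sham, 4.24, 4.06 and 4.09 in TIA 24h animals and 2.34, 3.58 and 3.04 in TIA 3d animals. Its TIA 24h animals were above all others, with a difference of 1.11 against Sham (SE 0.48, adjusted p = 0.647, limma) and with a difference of -1.14 between TIA 3d and TIA 24h (SE 0.48, adjusted p = 0.0954, limma).

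Il1r2, the decoy receptor that binds IL-1 without signalling, had log2 levels of 3.40, 3.83 and 4.97 in Sham, 4.83, 5.21 and 4.51 in TIA 24h animals and 4.03, 3.94 and 3.52 in TIA 3d animals. TIA 24h and TIA 3d did not overlap, whereas Sham overlapped with both. The difference between the time points was -1.02 (SE 0.46, adjusted p = 0.12, limma), and for Il1r1 it was -0.97 (SE 0.48, adjusted p = 0.15, limma). The receptor genes were counted from 4 to 29 times in a lane, which limited the precision of these differences. The within-lane log2 ratio of Il1r1 to Il1r2 ran from -2.00 to 0.35 in Sham, from -1.58 to -0.47 at TIA 24h and from -1.07 to -0.85 at TIA 3d, and the groups overlapped.

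Nlrp3, the sensor that nucleates the inflammasome, had log2 levels of 4.94, 4.88 and 3.56 in Sham, 4.24, 3.69 and 4.62 in TIA 24h animals and 6.22, 5.13 and 5.76 in TIA 3d animals. The TIA 3d animals were above all others, and Sham and TIA 24h overlapped. Nlrp3 rose by 1.52 from TIA 24h to TIA 3d (SE 0.49, adjusted p = 0.0474, limma), a direction that turned relative to the microglial markers (-1.37) and with the lane total as a covariate (-0.11). The rise rested on 273 against 32 pooled counts, and the ratio of normalized levels was 3.04 (counting interval 2.11 to 4.54). When single samples were left out the log2 difference was 1.26 to 1.81, with adjusted p from 0.019 to 0.168 (limma), and only without Sham replicate 1 or 3 or TIA 3d replicate 2 did the p stay under 0.05. Over all 20 alternatives Nlrp3 was called in 7. The call was also lost with quantile normalization, scaling to the lane total, voom, the replicate block and the ordinary linear model. Against Sham it differed by -0.27 at TIA 24h (adjusted p = 0.906, limma) and by 1.24 at TIA 3d (SE 0.49, adjusted p = 0.19, limma).

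P2rx7, the ATP-gated channel upstream of NLRP3, was also highest at TIA 3d. It stood at 5.75, 4.83 and 4.56 in Sham, 4.90, 5.28 and 5.01 in TIA 24h animals and 6.14, 5.88 and 6.45 in TIA 3d animals. The TIA 3d animals were above all others, while Sham and TIA 24h had means of 5.04 ± 0.62 and 5.06 ± 0.19 (SD, n = 3 each), which differed by less than the spread between animals. The difference between the time points was 1.09 (SE 0.42, adjusted p = 0.0764, limma), outside the threshold, and the ratio of normalized levels was 2.22 (counting interval 1.67 to 2.99). The difference was -0.0025 under quantile normalization, -0.08 with the lane total as a covariate and -1.79 relative to the microglial markers, and it was called in none of these. It was called with median centring (1.43, adjusted p = 0.0432, limma), with no lane scaling (2.56, adjusted p = 0.00861), with array weights (1.08, adjusted p = 0.0217) and without Sham replicate 1 (1.09, adjusted p = 0.046). Among all genes the mean level of P2rx7 stood at percentile 90.9 in Sham, 91.0 in TIA 24h animals and 90.6 in TIA 3d animals.

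Casp1, the protease that cuts pro-IL-1 beta, did not separate the groups as deposited. Its log2 level was 5.11, 4.30 and 4.43 in Sham, 4.36, 4.06 and 4.51 in TIA 24h animals and 4.72, 4.73 and 4.04 in TIA 3d animals, and all groups overlapped. Its differences were -0.31 in TIA 24h animals and -0.12 in TIA 3d animals against Sham and 0.19 between the time points (SE 0.41 each, adjusted p = 0.848, 0.885 and 0.755, limma). It was the sole gene of the 9 whose difference lay within its SE in all 3 comparisons as deposited. Between the time points it was called under other scalings, in opposite directions: 1.65 with no lane scaling (adjusted p = 0.0186, limma), where the recovered counts of 9 to 13 and 30 to 47 did not overlap, and -2.70 relative to the microglial markers (adjusted p = 0.0256, limma).

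Counted over the 9 genes, 4 were called between TIA 3d and TIA 24h, beside 19.2% of all genes of the panel. The 2 called higher were Il1a and Nlrp3 (11.6% of all genes were called higher), and the 2 called lower were Il1b and Il1rn (7.53% were called lower). The TIA 24h and TIA 3d animals did not overlap for 7 of the 9, where 48.3% of all genes did not. The median difference was -0.97 over the 9 genes and -0.25 over all genes. An unadjusted p under 0.05 was found for 7 of the 9, beside 40.2% of all genes. The shares among the 9 were above those of the panel in this comparison, and whether they differ was not tested.

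Against Sham, 0 of the 9 genes were called in limma at either time, as were 0% of all genes, and voom and the ordinary linear model also called 0 of the 9. At TIA 3d, array weights called 4 of the 9, beside 23% of all genes, and leaving out Sham replicate 1 called 2, beside 11.1%. At TIA 24h, 3 had an unadjusted p under 0.05 (Il1a, Il1b and Il1rap, where 7.53% of all genes did), and 3 did not overlap with Sham (Il1b, Il1rn and Il1rap, where 9.78% of all genes did not). At TIA 3d, 3 had an unadjusted p under 0.05 (19.6% of all genes), and the same 3, Il1a, Nlrp3 and P2rx7, lay wholly above Sham (24.2% of all genes did not overlap). The median difference was 0.66 over the 9 genes and 0.15 over all genes at TIA 24h. At TIA 3d these medians were -0.12 and -0.01. In the F test over the 3 groups 0 of the 9 passed, beside 0% of all genes, and 5 had an unadjusted p under 0.05, beside 31% of all genes. Both comparisons with Sham share its animals, and Sham replicates 1 and 3 were the ones farthest apart for Il1a.

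The other measured genes of the pathway are set beside the 11.6% of all genes called higher and the 7.53% called lower between the time points. Of 13 genes that carry the signal from the IL-1 receptor to NF-kB and p38, 2 rose and 1 fell from TIA 24h to TIA 3d, with a median difference of 0.64. Rela, the p65 subunit of NF-kB, rose by 2.19 (adjusted p = 0.0304, limma) and Nfkbia, the NF-kB inhibitor that is itself an NF-kB target, rose by 1.89 (adjusted p = 0.0474, limma). Rela had recovered counts of 1 to 5 in TIA 24h animals and 17 to 50 in TIA 3d animals, and Nfkbia 4 to 8 and 34 to 94. Both rises were smaller than the median rise of 2.96 of the microglial markers. Irak3, which brakes signalling at the receptor complex, fell by 1.68 on the log2 scale (adjusted p = 0.0229, limma), of which -1.46 was the difference of the lane factors, with recovered counts of 8 to 11 in TIA 24h animals and 7 to 9 in TIA 3d animals. Of 9 genes known to be induced by IL-1, the chemokine genes Ccl3 (2.60, adjusted p = 0.0373, limma) and Ccl4 (1.88, adjusted p = 0.0455, limma) rose and 0 fell.

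Of the other inflammasome genes, the adaptor gene Pycard and the caspase genes Casp4 and Casp8 gave 0 of 3 called, with differences from -0.15 to 1.15. Il1rl2, the receptor for IL-36, differed by -0.31 (adjusted p = 0.659, limma). P2ry12, the ADP receptor that marks homeostatic microglia and was the sole further purinergic gene measured, rose by 3.12 (adjusted p = 0.0379, limma). In the comparisons with Sham 0 genes of any of these lists were called.

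The genes that rose did so beside a rise of the microglial markers. From TIA 24h to TIA 3d all 9 microglial markers were called higher, with a median difference of 2.96, and all 5 measured immediate early genes (Fos, Jun, Egr1, Atf3 and Nfkbia), which dissociation can also induce, were called higher too. The immediate early genes took 0.488% to 2.04% of the lane in Sham, 0.770% to 1.21% in TIA 24h animals and 2.60% to 3.32% in TIA 3d animals. Of the oligodendrocyte markers 4 of 9 were called lower at TIA 3d, and the list took shares of 0.5% to 6.12% in Sham, 2.15% to 5.62% in TIA 24h animals and 0.293% to 0.603% in TIA 3d animals. Of the other marker lists, 1 of 10 T, B and NK cell genes, 1 of 5 astrocyte, 1 of 9 neuron and 2 of 5 endothelial genes were called lower, and 0 of 2 neutrophil, 0 of 1 monocyte and 0 of 1 border macrophage genes were called, where 7.53% of all genes were called lower and 11.6% higher. The part of these shifts in the IL-1 results was not tested.

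Neutrophils and monocytes also make Il1b and Il1r2, and few of their markers were on the panel. The neutrophil gene Ly6g had 10 to 12 counts in the Sham lanes, 10 to 11 in TIA 24h animals and 11 to 18 in TIA 3d animals, and Ccr2, the chemokine receptor of monocytes, had 5 to 15, 10 to 14 and 9 to 19. Csf3r, the other neutrophil gene measured, which microglia also express, had 15 to 89 counts in the Sham lanes, 16 to 20 in TIA 24h animals and 91 to 119 in TIA 3d animals. The log2 differences between the time points were -1.14 for Ly6g (adjusted p = 0.0588, limma), -1.33 for Ccr2 (adjusted p = 0.0617, limma) and 0.98 for Csf3r (adjusted p = 0.118, limma), so the differences of the measured neutrophil genes had opposite signs. The difference of the lane factors, -1.46 for every gene, was larger than the falls of Ly6g and Ccr2. The part of these genes in the fall of Il1b was not tested.

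Expressed relative to the mean of the microglial markers in the lane, a setting chosen after seeing the data, Nlrp3 turned to -1.37, Casp1 to -2.70 and P2rx7 to -1.79, whereas Il1b stood at -4.66 (adjusted p = 0.00421, limma). In that setting the median of all genes lay at -3.13, against -0.25 as deposited and 1.22 with no lane scaling. Under each of the 5 scalings drawn, Il1a had a positive difference and Il1b a negative one, and so had Il1rn, while the direction of the other 6 genes was not the same in all of them. With no lane scaling the differences of Il1b (-0.31) and Il1rn (-0.10) were smaller than their SE. A change of scaling shifts all genes of a lane nearly alike, so a shared sign is a description and no test of direction. With the log2 total of the lane as a covariate 0 of the 9 genes, and 0% of all genes, were called.

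**Figure D4:**
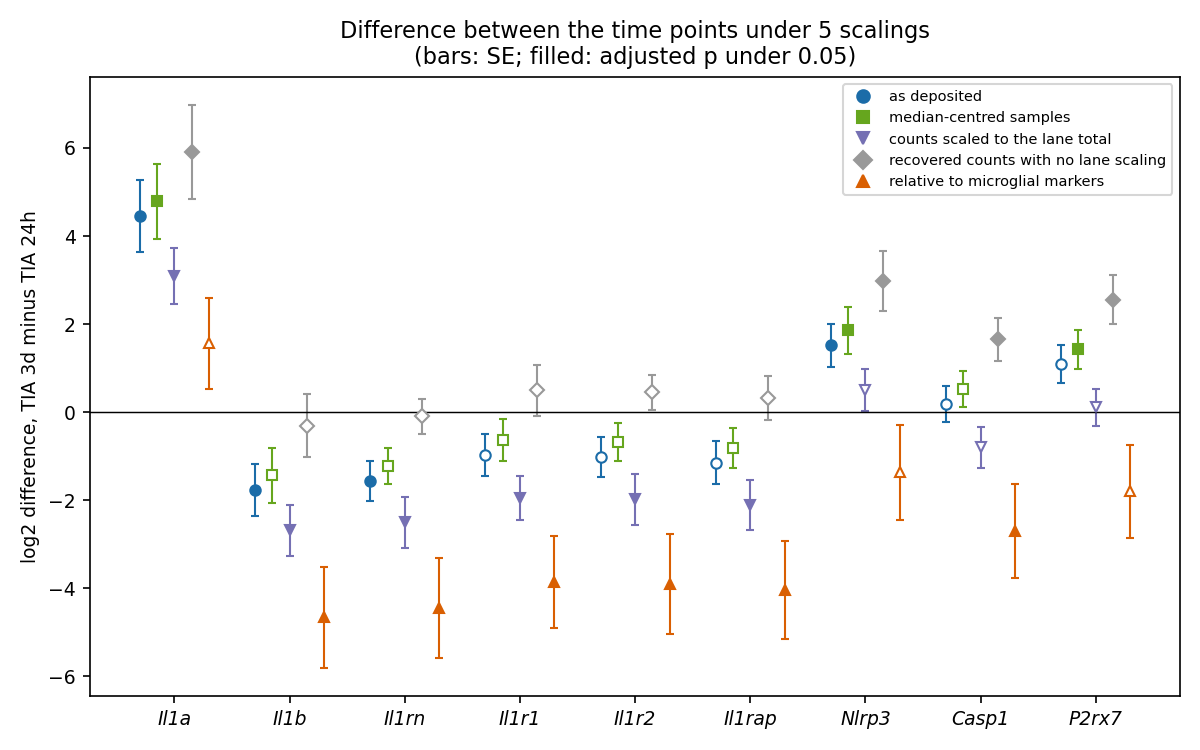
Log2 difference TIA 3d minus TIA 24h (y axis) of the 9 genes (x axis) under 5 scalings of the lanes, with bars for the SE and filled markers where the adjusted p was under 0.05 (n = 3 animals per group). Il1a lies above 0 and Il1b and Il1rn below 0 under all 5, and the other 6 genes cross 0, with Nlrp3 from -1.37 to 2.98 and P2rx7 from -1.79 to 2.56.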

How the data were processed

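Total RNA of the sorted microglia-like cells, 65 ng per sample, was hybridised to the Mouse Neuroinflammation code set and read on an nCounter SPRINT instrument. The deposited values are log2 of counts that the authors divided in each lane by the geometric mean of housekeeping probes chosen by geNorm, in ROSALIND. The methods exclude genes below the highest negative control, but do not state if the deposited table was so filtered. In each lane all values were whole multiples of a single step (100% within 0.01 counts), which gave the recovered counts.

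Groups were read from the sample titles. Linear models with group means were fitted to the log2 values of the 757 genes over the 9 samples (limma 3.58.1, R 4.3.3, prior degrees of freedom 7.23), with two-sided contrasts and an F test, Benjamini-Hochberg adjustment over all genes and a threshold of 0.05. The limma p-values rest on 1 spread per gene, pooled over all 3 groups of 3 animals and moderated over all genes. The Sham spread therefore also enters the contrast of both time points. The Il1a to Il1b ratio was compared by exact permutation tests (scipy 1.17.1). The model was checked on simulated data. The 9 genes and all lists were chosen with earlier results of these data known. The text names the 9 genes, the list genes past the threshold (up to 6 per list) and the 5 genes most like Il1a and Il1b. Values of Ly6g, Csf3r and Ccr2 and the ratios of Il1b to Il1rn and Il1r1 to Il1r2 were picked after values were seen.

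The alternatives were median centring, quantile normalization, scaling to the lane total, a block for the replicate number, leaving out genes with means under the 0.25 quantile, the log2 lane total as a covariate, voom on recovered counts with TMM factors, array weights, an ordinary linear model, a floor of 3 or an added 0.5 counts for the ratio, and leaving out each sample. Values relative to the microglial markers and counts with no lane scaling were added after seeing the data. Symbols were matched to RefSeq genes (GRCm38.p6; 750 of 757 directly), and the promoter sequences are RefSeq's.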

Additional observations from a re-analysis of the deposited data

Results flagged for a closer look

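For 4 genes the change against Sham at TIA 3d differed from that at TIA 24h, by the limma contrast of both time points, in which Sham cancels. The later change minus the earlier one was 4.45 for Il1a and 1.52 for Nlrp3, both higher at TIA 3d, and -1.77 for Il1b and -1.56 for Il1rn, both lower at TIA 3d, on the log2 scale. For these 4 genes, picked because they were called in this contrast, the animals of both time points did not overlap, as was the case for 48.3% of all genes. Depth and TIA 3d cannot be told apart in this design.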

How the results depend on the processing

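Over 20 alternatives, 436 of 540 differences of single genes between 2 groups kept their direction and side of the threshold, 40 that were called in neither setting changed sign, 19 gained and 42 lost a call, and 3 reversed. Of 180 F tests of single genes, 152 kept their side and 28 gained a call. The reversed values were -0.11 for Nlrp3 between the time points with the lane total as a covariate, and -1.37 for Nlrp3 and -2.70 for Casp1 relative to the microglial markers. The 4 genes called between TIA 3d and TIA 24h became 1 with quantile normalization (0.925% of all genes called), 2 with voom (8.32%), 0 with the lane total as a covariate or the ordinary linear model (0%), 3 with median centring (19%; Il1b and Il1rn lost, P2rx7 gained), and 6 with scaling to the lane total (50.1%), array weights (41.5%) or values relative to the microglial markers (72%). With no lane scaling 4 were called (44.1%), namely Il1a, Nlrp3, Casp1 and P2rx7. Leaving out a sample gave 0 to 5: 0 without TIA 24h replicate 2, TIA 24h replicate 3, TIA 3d replicate 1 or TIA 3d replicate 3 (0% of all genes in each), 1 without TIA 24h replicate 1 (11.2%), 2 without Sham replicate 2 (11.9%) and 5 without Sham replicate 1 (29.9%). There Il1a kept a difference of 3.95 to 5.42 with adjusted p of 0.0015 to 0.0884 (limma). Against Sham at TIA 3d, array weights called 4 genes, beside 23% of all genes, and leaving out a sample gave 0 to 2, with 2 without Sham replicate 1 (11.1%). The F test, with 0 genes as deposited, called 1 with median centring (6.87% of all genes) or with low values left out (7.04%), 6 with scaling to the lane total (32.2%), 5 with array weights (38.6%) or relative to the microglial markers (51.5%), and 3 with no lane scaling (33.7%). Leaving out a sample gave it 0 to 3, with 3 without Sham replicate 1 (18%), 2 without Sham replicate 3 (16.6%) and 1 without TIA 24h replicate 1 (0.132%). Causes were not tested. The share of variance of the Il1a to Il1b ratio between groups was 76.4% to 88.3% without single samples (exact permutation p = 0.00714 to 0.0464).

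The deviations did not settle whether the replicate numbers pair the samples. Of same-numbered pairs, 5 of 9 had a correlation of their deviations over 0.1 (range -0.237 to 0.271). Differently numbered pairs ran from -0.373 to 0.305. The highest correlation of 5 of 9 samples was with their own number. With the replicate block the time points had 3 genes called (18.5% of all genes), with Nlrp3 lost, and the F test 1 (7.13%). The Il1a to Il1b ratio had 88.8% of its variance between groups (exact permutation p = 0.0556, smallest possible 0.0278).

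Il1b, Il1rn and the receptor genes had 3 to 29 counts in a lane, which limits their precision, and lane depth is confounded with TIA 3d.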

Other observations

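The genes whose log2 levels over the 9 samples were most like Il1a, by Pearson r, were Ccni (0.958), Rpl36al (0.955), Trem2 (0.954), Itgb5 (0.947) and Rps9 (0.946). Those most like Il1b were Maff (0.914), Txnrd1 (0.893), Cytip (0.845), Clic4 (0.813) and Tbr1 (0.788). Among the other 8 members, the r with Il1a was 0.79 for Nlrp3, 0.73 for P2rx7, 0.36 for Casp1, -0.35 for Il1r1, -0.58 for Il1b, -0.62 for Il1rap, -0.81 for Il1r2 and -0.89 for Il1rn. The 9 points share the lanes' depth and scaling, and these values are a description.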
